A study of Homo sapiens with 12 samples.

Results

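The genes followed here are 10 members of the BCL2 family, the proteins that set whether a cell commits to apoptosis. They are the rows of the expression tables that carry the symbols BCL2, BCL2L1, MCL1, BCL2A1, BCL2L11, BMF, BBC3, PMAIP1, BAX, and BIK. All 10 were found among the 23273 genes listed for each cell line. RNA was sequenced from COLO858 and MMACSF, melanoma lines that carry a mutant BRAF kinase and respond to its inhibitor vemurafenib. Cells received DMSO, the drug's solvent, or 0.2 µM vemurafenib for 24 or 48 h, and each of the 6 groups was sequenced as 2 replicate plates, 12 libraries in all. By the labels the groups of a line differ only in drug and time, whereas the lines themselves were grown in different media, RPMI for COLO858 and DMEM/F12 for MMACSF. The DMSO libraries carry no time, so the 24 and 48 h values of a line were set against the same pair of DMSO libraries and are not independent of each other. With 2 plates per group, p-values measure only the spread between these plates, which may be technical.

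BCL2 family proteins act at the outer membrane of the mitochondrion. The effector BAX, like its relative BAK1, opens pores that release cytochrome c, and the guards BCL2, BCL-XL (from BCL2L1), MCL1, and BFL1 (from BCL2A1) hold the effectors in check. The BH3-only proteins BIM (BCL2L11), BMF, PUMA (BBC3), NOXA (PMAIP1), and BIK bind the guards, each with its own preferences, and some also activate BAX directly. In melanoma, active ERK marks BIM for degradation, MITF can drive BCL2A1 transcription in pigment cells, and FOXO factors can drive BCL2L11 transcription. The purpose of the RNA measurement in the study was to find genes tied to the drug-adapted state that appears in COLO858, with MMACSF as the line for comparison. The tables hold mRNA only, per gene, and so cannot separate the long and short products of BCL2L1 or the BIM isoforms, nor show protein.

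Promoter sequences are printed for the genes on which the results turn. These are the BH3-only genes with the largest changes, BCL2L11, BMF, and PMAIP1, then BCL2A1, whose transcript was near 0 in one line and abundant in the other, and BAX, the most abundant member in COLO858. Each runs 5′ to 3′ over the 250 bases before the RefSeq start on GRCh38.p14, with capitals marking a motif match.
BCL2L11, chr2:111120664-111120913, plus strand: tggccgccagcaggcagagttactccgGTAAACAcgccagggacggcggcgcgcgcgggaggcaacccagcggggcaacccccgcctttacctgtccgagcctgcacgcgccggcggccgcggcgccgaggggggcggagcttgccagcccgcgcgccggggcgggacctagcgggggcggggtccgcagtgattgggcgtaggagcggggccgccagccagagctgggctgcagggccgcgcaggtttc
BMF, chr15:40108880-40109129, minus strand: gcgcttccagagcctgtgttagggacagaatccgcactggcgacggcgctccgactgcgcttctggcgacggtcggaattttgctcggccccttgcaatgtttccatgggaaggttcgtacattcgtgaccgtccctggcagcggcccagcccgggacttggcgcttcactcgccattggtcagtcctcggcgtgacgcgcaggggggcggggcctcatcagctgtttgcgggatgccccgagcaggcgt
PMAIP1, chr18:59899746-59899995, plus strand: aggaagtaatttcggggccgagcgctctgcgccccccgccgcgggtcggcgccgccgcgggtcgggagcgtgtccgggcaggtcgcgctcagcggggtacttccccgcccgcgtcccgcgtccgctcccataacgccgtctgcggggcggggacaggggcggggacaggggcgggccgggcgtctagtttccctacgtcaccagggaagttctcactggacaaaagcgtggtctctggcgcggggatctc
BCL2A1, chr15:79971197-79971446, minus strand: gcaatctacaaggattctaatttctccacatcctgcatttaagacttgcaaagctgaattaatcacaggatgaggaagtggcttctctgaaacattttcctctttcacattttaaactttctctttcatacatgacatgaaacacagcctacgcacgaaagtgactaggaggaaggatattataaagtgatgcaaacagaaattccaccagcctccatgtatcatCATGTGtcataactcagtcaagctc
BAX, chr19:48954625-48954874, plus strand: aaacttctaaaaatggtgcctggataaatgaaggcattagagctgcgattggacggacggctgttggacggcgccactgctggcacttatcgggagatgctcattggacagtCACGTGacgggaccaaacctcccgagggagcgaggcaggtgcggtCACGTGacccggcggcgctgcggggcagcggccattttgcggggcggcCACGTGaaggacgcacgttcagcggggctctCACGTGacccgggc
A RefSeq window was matched for 8 of the 10 members, 10 windows in all because BCL2L1 and BMF have a pair each. Windows for MCL1 and BIK were not used here. Both strands were searched for the E-boxes CACGTG and CATGTG, the FOXO core GTAAACA, the AP-1 site TGANTCA, and the ETS site CCGGAAG. These letters occur in 6.34%, 9.42%, 2.98%, 6.57%, and 8.52% of 35116 promoters of the same length, respectively. BCL2L11 held a GTAAACA that begins 223 bases before the start. BCL2A1 held a CATGTG 25 bases before the start, and BAX held 4 copies of CACGTG, at 138, 93, 45, and 14 bases before it. BBC3 held a CACGTG 232 bases before its start. An AP-1 match lay 113 bases before the same start. The windows of BCL2, BCL2L1, BMF, and PMAIP1 held none of the 5 motifs. The BCL2L11 window is 76.8% G and C and that of PMAIP1 72.8%, against 38.8% for BCL2A1 and a median of 58.0% over all promoters.

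Values are the authors' deposited FPKM, fragments scaled to transcript length and to the mapped fragments of the library. Each line has its own table, and whether the tables were scaled together is not stated, so levels are set against each other within a line and only changes are compared across lines. Read depth is unknown and the reads behind a value cannot be recovered. Between 11679 and 11972 genes reached 1 FPKM per library. Of a list of 10 transcripts that report BRAF and ERK signaling, 8 were lower in each comparison with DMSO by the test given below. SPRED1 and PHLDA1 did not pass. Of all genes tested, 5.71% and 4.73% were lower in COLO858 at 24 and 48 h, and 3.6% and 5.41% in MMACSF. The largest falls among the 10 in each comparison were of ETV4, an ETS factor, and SPRY4, a feedback inhibitor. ETV4 changed by -4.98 and -5.55 on the log2 scale in COLO858 at 24 and 48 h and by -5.47 and -5.17 in MMACSF (limma adjusted p of 0.000547 or less). SPRY4 changed by -4.82 and -4.90 and by -3.57 and -2.76 (limma adjusted p of 0.000504 or less). In COLO858 MLANA and TYR, markers of pigment cells, had group means of 0.32 to 1.18 FPKM, and the other 4 lineage markers, DCT, PMEL, S100B, and SOX10, had means of 64.6 to 2915. All 6 exceeded 1 FPKM in MMACSF. Genes were compared with limma on log2(FPKM + 1), and changed, rose, or fell below is used for an adjusted p under 0.01 (two-sided, Benjamini-Hochberg over all genes tested). A gene was tested if its mean reached 1 FPKM in any group compared. That kept all 10 members in MMACSF and 9 in COLO858, where BCL2A1 was too low, and in MMACSF PMAIP1 and BIK passed this filter only through their DMSO means of 1.94 and 1.09 FPKM.

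The family was not uniformly expressed in drug-naïve cells. In COLO858 under DMSO, mean levels ran in the order BAX, MCL1, BCL2L1, PMAIP1, BBC3, BCL2L11, BMF, BCL2, BIK, and BCL2A1, from 255 down to 0.122 FPKM. The replicates of BCL2L11 and BMF overlapped, as did those of BCL2 and BIK, so neither pair could be ordered. In MMACSF the order was BAX, BCL2A1, MCL1, BCL2L1, BBC3, BMF, BCL2L11, PMAIP1, BCL2, and BIK, from 166 to 1.09 FPKM. There the values of BAX and BCL2A1 overlapped, as did those of MCL1 and BCL2L1, and of BCL2 and BIK.

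**Figure D1:**
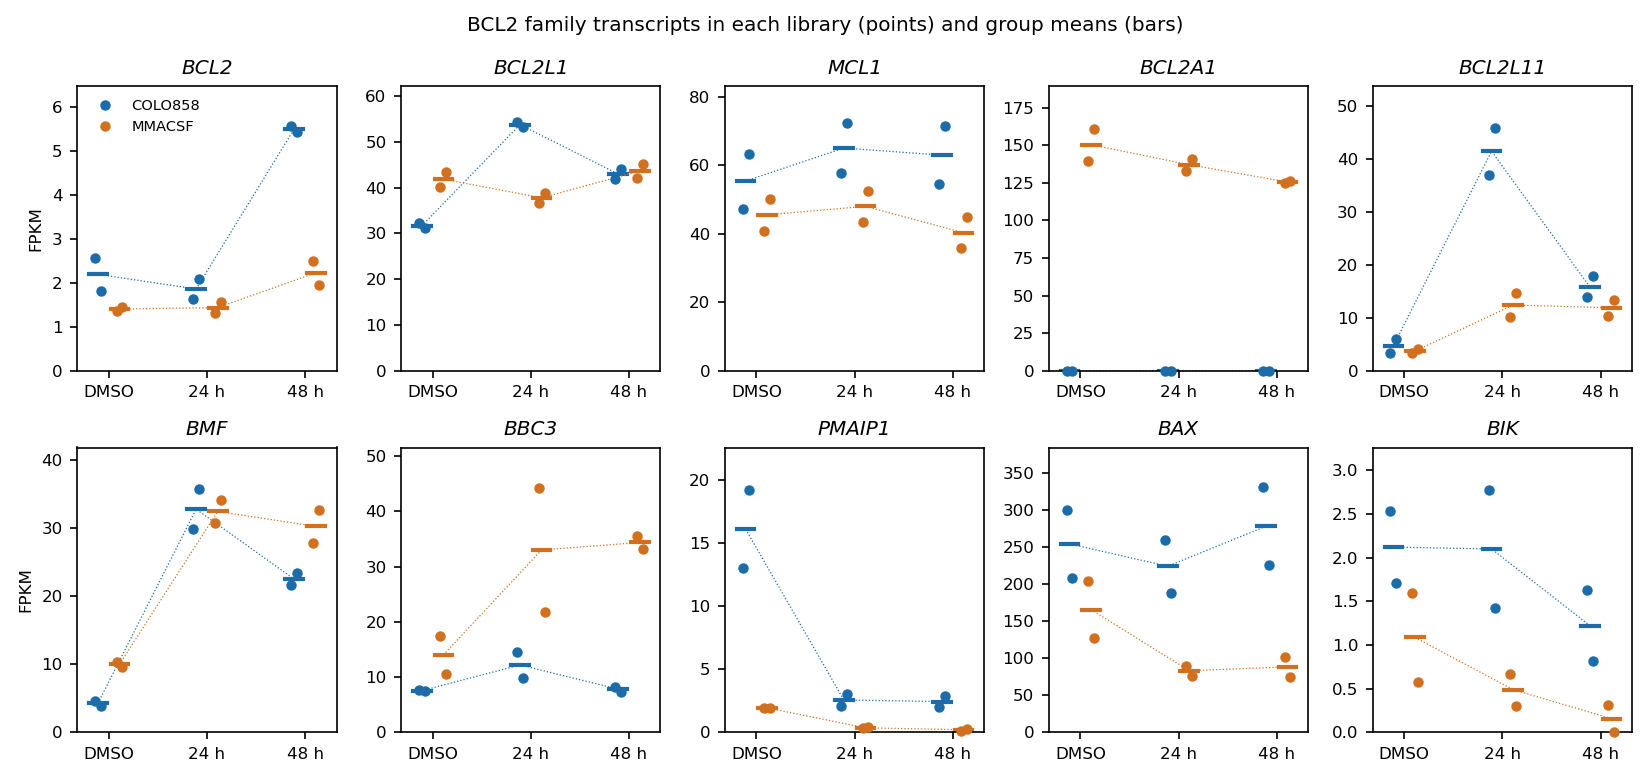
FPKM of each of the 10 genes (y axis, linear, a separate scale for each gene) by treatment (x axis) in COLO858 and MMACSF. Points are the 2 replicate libraries, bars their mean, and dotted lines join the means. BCL2L11 peaked at 24 h in COLO858 (mean 41.5 FPKM), PMAIP1 was lower in drug in both lines, and BCL2A1 reached 125 to 161 FPKM in MMACSF against at most 0.156 in COLO858.

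In this fit, which does not use the replicate number, BH3-only genes accounted for every member that changed against DMSO. When the replicate number was added as a block, BCL2L1 and BCL2 in COLO858 and BAX in MMACSF passed too. Many more of all genes also passed then, as given in the closing section. In COLO858, 2 of the 9 members tested rose and 1 fell at 24 h, where 9.82% of all 12696 genes passed (4.11% higher and 5.71% lower). At 48 h 1 rose and 1 fell, against 9.47% of all genes (4.74% higher, 4.73% lower). In MMACSF, 1 of 10 rose and 1 fell at each time, where 5.83% of 12599 genes passed at 24 h (2.22% higher, 3.6% lower) and 8.83% at 48 h (3.42% higher, 5.41% lower). The 1 that fell there was PMAIP1, tested only through its DMSO mean, so that fall is description only. The members called were few and whether their shares exceed these backgrounds was not tested, so what follows describes single genes. The median log2 change of the members was 0.23 at 24 h and 0.18 at 48 h in COLO858, beside 0.057 and -0.014 over all genes. In MMACSF it was -0.056 and -0.057, beside 0.073 and 0.065.

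BMF, a BH3-only protein that sits on the dynein light chain of the cytoskeleton until released, rose in both lines at both times. Its COLO858 libraries read 4.65 and 3.89 FPKM under DMSO, 29.8 and 35.8 at 24 h, and 21.6 and 23.4 at 48 h. The MMACSF libraries read 10.4 and 9.61 FPKM under DMSO, 30.8 and 34.2 at 24 h, and 27.8 and 32.7 at 48 h. Every treated library of a line lay above both of its DMSO libraries, and the 24 and 48 h values overlapped in MMACSF but not in COLO858. On the log2(FPKM + 1) scale the rise in COLO858 was 2.68 ± 0.16 (SE, limma adjusted p = 0.000963) at 24 h and 2.16 ± 0.16 (limma adjusted p = 0.00156) at 48 h. In MMACSF it was 1.60 ± 0.14 (limma adjusted p = 0.00282) and 1.50 ± 0.14 (limma adjusted p = 0.00268). Mean FPKM was 7.69 and 5.28 times that of DMSO in COLO858, and 3.24 and 3.03 times in MMACSF. The treated levels were alike in FPKM at 24 h, 32.8 in COLO858 and 32.5 in MMACSF, while the DMSO level was lower in COLO858, within the limit on comparing tables given above.

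BCL2L11 encodes BIM, which binds all of the guards. COLO858 libraries held 3.39 and 6.09 FPKM under DMSO, 37.1 and 45.9 at 24 h, and 13.9 and 17.8 at 48 h. The 3 groups did not overlap, with 24 h the highest. The 24 h rise was 2.92 ± 0.28 on the log2 scale (limma adjusted p = 0.00288), a ratio of means of 8.76, and ranked 206th in size among all genes tested in that comparison. At 48 h the difference from DMSO was 1.59 ± 0.28 (limma adjusted p = 0.0152), and the step from 24 to 48 h was -1.33 ± 0.28 (limma adjusted p = 0.0611), a mean 2.61-fold lower that did not pass the test. In MMACSF the libraries read 3.42 and 4.09 FPKM under DMSO, 10.2 and 14.7 at 24 h, and 10.4 and 13.5 at 48 h. Both treated groups lay above DMSO and overlapped each other, with differences of 1.48 ± 0.23 (limma adjusted p = 0.0124) and 1.44 ± 0.23 (limma adjusted p = 0.0110) that missed the threshold. These last 3 differences from DMSO, in COLO858 at 48 h and in MMACSF at both times, passed when small RNA genes were left out of the fit and when libraries were rescaled by median ratios, at nearly the same size. The GTAAACA printed above lies in the window of this gene and is a match of letters, not a site shown to be bound. Of the FOXO genes, FOXO4 rose in MMACSF at 48 h, by 0.94 (limma adjusted p = 0.00812), and FOXO1 and FOXO3 passed in neither line.

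PMAIP1 encodes NOXA, which binds MCL1 and BFL1. It moved the opposite way to BMF. Its COLO858 libraries held 13.0 and 19.2 FPKM under DMSO, 2.12 and 3.02 at 24 h, and 2.01 and 2.88 at 48 h. The treated libraries all lay below both DMSO libraries and the drug times overlapped. PMAIP1 fell by 2.25 ± 0.26 (SE, log2 scale, limma adjusted p = 0.00458) at 24 h and by 2.30 ± 0.26 (limma adjusted p = 0.00467) at 48 h, means 6.26- and 6.60-fold lower. MMACSF started from less, 1.96 and 1.93 FPKM under DMSO, and reached 0.333 and 0.398 at 24 h and 0.141 and 0.276 at 48 h. Again no treated library overlapped DMSO. On the same scale it was lower by 1.11 ± 0.15 (limma adjusted p = 0.00959) and 1.29 ± 0.15 (limma adjusted p = 0.00527), while the means were 5.32- and 9.34-fold lower. PMAIP1 was tested in MMACSF only through its DMSO mean, so these MMACSF differences are description only. Adding 1 FPKM compresses so low a transcript, and with 0.1 FPKM added the MMACSF differences were -2.14 and -2.76 and no longer passed.

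The remaining BH3-only genes did not pass in any comparison. BBC3 encodes PUMA, a BH3-only protein that FOXO factors can induce and that binds every guard. Its COLO858 libraries read 7.70 and 7.42 FPKM under DMSO, 14.5 and 9.89 at 24 h, and 8.27 and 7.40 at 48 h, so that only the 24 h pair stood above DMSO. In MMACSF it read 17.5 and 10.6 FPKM under DMSO, 44.2 and 21.9 at 24 h, and 35.5 and 33.2 at 48 h. Both drug groups lay above DMSO there, but the 24 h libraries lay far apart, and the differences of 1.14 ± 0.38 (limma adjusted p = 0.0924) and 1.27 ± 0.38 (limma adjusted p = 0.0629) were not past the threshold. BBC3 exons overlap MIR3191 on the opposite strand, which is listed with up to 277 FPKM in COLO858 and 880 in MMACSF, and how strand was used in counting is not stated. The libraries were stranded, but the FPKM do not show whether reads of the gene and of this small RNA were counted apart. BIK, a BH3-only protein of the endoplasmic reticulum, was scarce, at 0.816 to 2.77 FPKM in COLO858, where DMSO and 24 h overlapped and the 48 h pair lay just below DMSO. MMACSF BIK read 1.60 and 0.572 FPKM under DMSO, 0.671 and 0.306 at 24 h, and 0.317 and 0 at 48 h, with a 48 h difference of -0.82 ± 0.31 (limma adjusted p = 0.113).

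Among the guards, the lines were set apart first by BCL2A1. BFL1, its product, is a guard of blood and pigment cells. In COLO858 it read 0.127 and 0.117 FPKM under DMSO, 0 and 0.156 at 24 h, and 0 and 0.128 at 48 h, and was too low to test. In MMACSF it read 139.7 and 161 FPKM under DMSO, 133 and 141 at 24 h, and 125 and 126 at 48 h. The 48 h pair lay below DMSO but the difference, -0.25 ± 0.12 (log2 scale, limma adjusted p = 0.172), did not pass, nor did that at 24 h. MITF, which can drive this gene, had means of 67.3 to 109 FPKM in COLO858 and 209 to 239 in MMACSF and passed in neither line.

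BCL2L1, whose main product is the guard BCL-XL, showed the clearest difference between the lines in how it moved. In COLO858 the libraries held 32.2 and 31.1 FPKM under DMSO, 54.3 and 53.1 at 24 h, and 41.9 and 43.99 at 48 h. The groups did not overlap, with 24 h the highest. In MMACSF they held 40.2 and 43.5 FPKM under DMSO, 36.7 and 38.9 at 24 h, and 42.0 and 45.2 at 48 h, where the 24 h pair was the lowest. The COLO858 difference was 0.74 ± 0.12 (limma adjusted p = 0.0111) at 24 h, just short of the threshold, and 0.43 ± 0.12 (limma adjusted p = 0.0515) at 48 h. It passed at 24 h when small RNA genes were left out or when only genes reaching 10 FPKM were tested. The MMACSF differences were -0.14 ± 0.11 and 0.059 ± 0.11.

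BCL2, the guard that gives the family its name, was scarce next to BCL2L1 and MCL1. COLO858 libraries read 2.57 and 1.81 FPKM under DMSO, 1.63 and 2.09 at 24 h, and 5.56 and 5.43 at 48 h. DMSO and 24 h overlapped, and both 48 h libraries lay above every other library of the line. The 48 h difference was 1.04 ± 0.18 from DMSO (limma adjusted p = 0.0147) and 1.19 ± 0.18 from 24 h (limma adjusted p = 0.0273), and the first of these passed without the small RNA genes. In MMACSF BCL2 read 1.36 and 1.45 FPKM under DMSO, 1.30 and 1.57 at 24 h, and 2.50 and 1.96 at 48 h. The 48 h pair was again the highest, with a difference of 0.42 ± 0.17 (limma adjusted p = 0.125). MCL1 encodes a short-lived guard whose level is largely set by protein turnover. It ranged from 47.4 to 72.4 FPKM in COLO858 and from 35.8 to 52.5 in MMACSF, and all groups of a line overlapped. Replicate 2 was the higher in each of the 6 groups. Its exons overlap those of ADAMTSL4 on the opposite strand, a gene with at most 9.79 FPKM in COLO858 and 0.0854 in MMACSF.

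BAX, the only effector among the 10, was the most abundant member in COLO858 at every time, and in MMACSF its treated levels lay below those of BCL2A1. COLO858 libraries held 301 and 208 FPKM under DMSO, 260.3 and 189 at 24 h, and 331 and 226 at 48 h, overlapping throughout. MMACSF libraries held 204 and 127 FPKM under DMSO, 89.8 and 76.8 at 24 h, and 102 and 75.4 at 48 h. There both treated groups lay below DMSO, with differences of -0.95 ± 0.27 (limma adjusted p = 0.0623) and -0.87 ± 0.27 (limma adjusted p = 0.0688) that did not pass. Replicate 1 was the higher in all 6 groups, and in COLO858 the replicates of a group differed more than the group means did. The 4 CACGTG letters printed above make its window unlike those of the other members, of which only BBC3 held that motif.

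**Figure D2:**
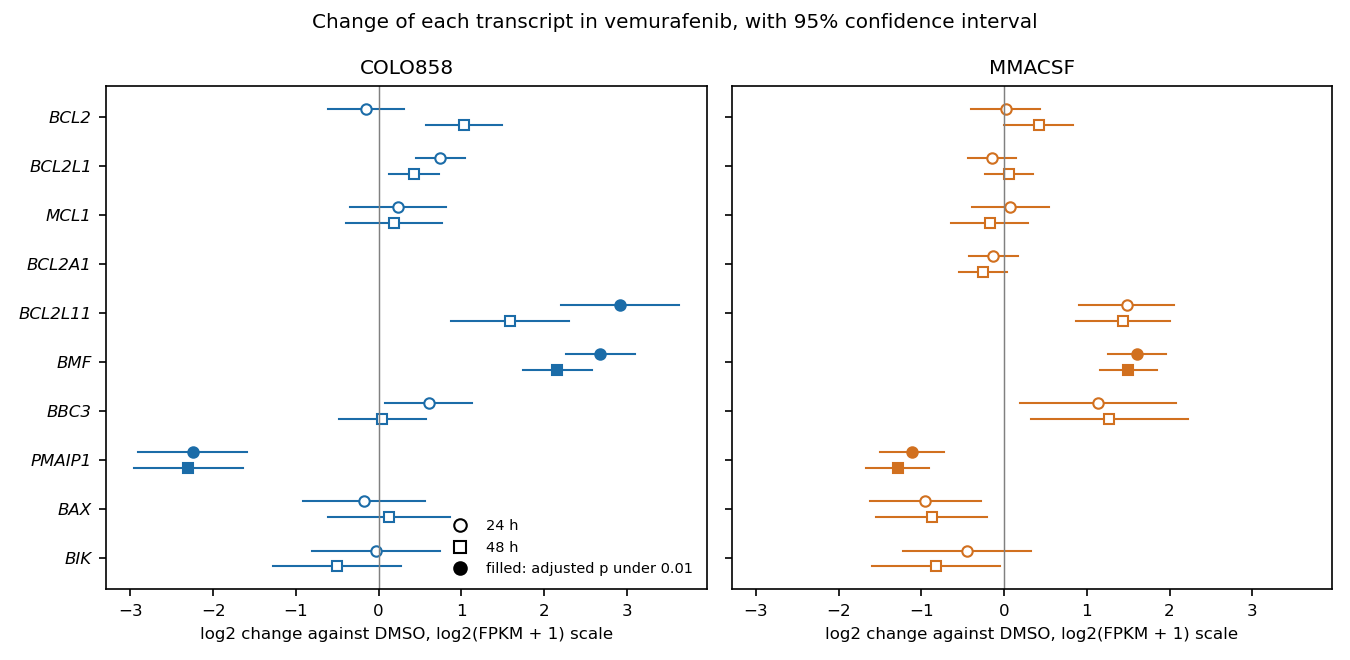
Log2 change of each gene against DMSO (x axis, log2(FPKM + 1) scale) at 24 h (circles) and 48 h (squares) in COLO858 (left) and MMACSF (right), with 95% confidence intervals from limma as bars. Filled symbols passed an adjusted p of 0.01. BMF and PMAIP1 passed in both lines at both times, BCL2L11 passed in COLO858 at 24 h, and BCL2A1 was not tested in COLO858. PMAIP1 was tested in MMACSF only through its DMSO mean, so its MMACSF symbols are description only.

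Between 24 and 48 h, 0 of 9 members passed in COLO858, where limma called 1.38% of all genes (1.17% higher, 0.213% lower), and 5 had an unadjusted p under 0.05, as did 20.1% of all genes. These were BCL2, higher at 48 h, and BCL2L1, BCL2L11, BMF, and BBC3, lower. In MMACSF 0 of 10 passed, against 0.222% of all genes (0.111% in each direction), and 0 had an unadjusted p under 0.05, against 6.98% of all genes. The levels of BCL2L11, BMF, BBC3, and BCL2L1 in COLO858 were thus highest at 24 h, without overlap with the 48 h libraries.

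Whether the lines differed in their response was tested directly, as the change in COLO858 minus that in MMACSF over the 12 libraries. At 24 h 1 of 10 members passed, against 3.71% of 13595 genes (1.78% more positive in COLO858, 1.93% less). BCL2A1 entered this fit through its MMACSF level. The member that passed was BCL2L1, with a difference of 0.89 ± 0.13 (SE, log2 scale, limma adjusted p = 0.00500). BMF followed, at 1.08 ± 0.20 (limma adjusted p = 0.0135), which did not pass. Nor did BCL2L11, at 1.44 ± 0.39 (limma adjusted p = 0.0575), or PMAIP1, at -1.14 ± 0.30 (limma adjusted p = 0.0512). At 48 h 0 of 10 passed, against 7.48% of all genes (4.19% and 3.3%), and 5 had an unadjusted p under 0.05 in limma, as did 27.5% of all genes. The BCL2L11 difference was 0.15 ± 0.39 at that time, with a 95% interval of -0.73 to 1.04. The BBC3 difference was -1.23 ± 0.47 (limma adjusted p = 0.133) and that of BAX 1.00 ± 0.44 (limma adjusted p = 0.184). For the step from 24 to 48 h, 0 of 10 passed against 2.96% of all genes (2.46% and 0.508%), and 3 had an unadjusted p under 0.05, as did 17.4% of all genes, with -0.52 ± 0.13 for BCL2L1 (limma adjusted p = 0.0570), -1.29 ± 0.39 for BCL2L11 (limma adjusted p = 0.106), and 0.79 ± 0.22 for BCL2 (limma adjusted p = 0.0857). PMAIP1 started much lower in MMACSF, and adding 0.1 in place of 1 FPKM turned its 48 h difference from -1.01 to 0.098.

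**Figure D3:**
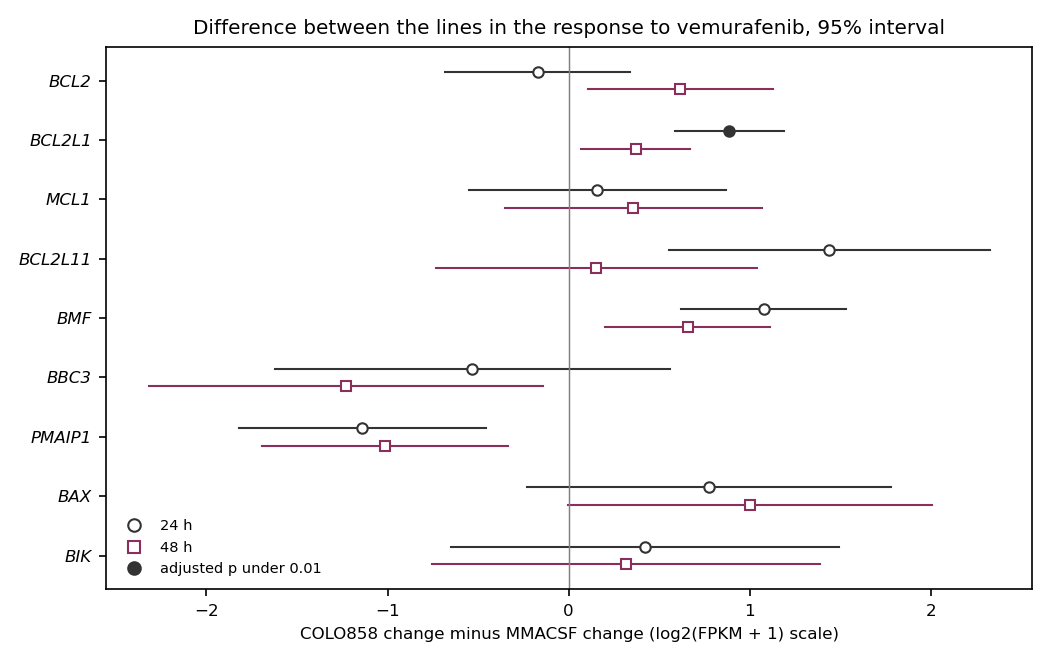
Change in COLO858 minus change in MMACSF (x axis, log2(FPKM + 1) scale) for the 9 genes tested in both lines, at 24 h (circles) and 48 h (squares), with 95% confidence intervals as bars. The filled circle, BCL2L1 at 24 h (0.89), is the one difference past an adjusted p of 0.01, and the BCL2L11 difference was 1.44 at 24 h and 0.15 at 48 h.

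The calls rest on 2 libraries per group. Leaving out any single library left the direction of each call in place, but the calls themselves were lost. Fewer libraries then remain to estimate the spread, and whether this or the library left out accounts for the loss was not tested. Only BMF in COLO858 at 24 h passed again, and only without DMSO replicate 1, at 2.79. Over these omissions the log2 change at 24 h was 2.55 to 2.81 for BMF, 2.58 to 3.27 for BCL2L11, and -2.51 to -1.98 for PMAIP1 in COLO858, and 1.53 to 1.68 for BMF and -1.14 to -1.07 for PMAIP1 in MMACSF. That of the BCL2L1 line difference was 0.83 to 0.94.

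Because FPKM is scaled for length, levels of different members can be summed. The sum over the 4 guards was 82.3 and 96.5 FPKM in the DMSO libraries of COLO858, 114 and 128 at 24 h, and 102 and 121 at 48 h. In MMACSF it was 222 and 256 FPKM, then 215 and 234, then 205 and 218. MCL1 and BCL2L1 together made up nearly all of it in COLO858, with mean shares of 61.7% and 35.7% under DMSO and 53.7% and 44.7% at 24 h. BCL2A1 made up 62.9%, 61.1%, and 59.4% of the MMACSF sum in DMSO, at 24 h, and at 48 h. Thus BCL2L1 gained share in COLO858 at 24 h, while the order of the guards stayed the same in the group means of each line, apart from BCL2L1 and MCL1 in MMACSF, which changed places at 48 h, where their libraries overlapped.

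The sum over the 5 BH3-only genes was 31.3 and 38.3 FPKM in COLO858 under DMSO, 86.3 and 96.1 at 24 h, and 47.5 and 52.4 at 48 h. In MMACSF it was 34.9 and 26.8 FPKM, then 86.1 and 71.5, then 74.2 and 79.7. The treated libraries of both lines lay above DMSO, and the 48 h libraries lay below those at 24 h in COLO858 but overlapped them in MMACSF. Composition shifted most in COLO858. PMAIP1 held 45.9% of the sum under DMSO, 2.80% at 24 h, and 4.86% at 48 h, whereas BCL2L11 went from 13.4% to 45.4% and 31.7%, and BMF from 12.5% to 35.9% and 45.1%. In MMACSF BBC3 was the largest share under DMSO and at 48 h, 44.8% each time, with BMF at 32.9%, 41.8%, and 39.3% over the 3 groups. The BH3-only sum divided by the guard sum was 0.380 and 0.397 in COLO858 under DMSO, 0.760 and 0.752 at 24 h, and 0.465 and 0.433 at 48 h. In MMACSF it was 0.157 and 0.104, then 0.401 and 0.305, then 0.362 and 0.365. Over these genes the ratio of transcripts was higher in drug in both lines, and its 48 h value fell between DMSO and 24 h in COLO858. The ratio holds for this choice of genes only, since family genes outside the 10 were left out. BAD, a BH3-only gene left out, had COLO858 means of 55.1, 42.4, and 59.8 FPKM over DMSO, 24 h, and 48 h. Under DMSO that is more than the sum of the 5 genes. In MMACSF the BAD means were 18.0, 18.4, and 23.3 FPKM. The guard gene BCL2L2 was also left out. The ratio was not computed with BAD or BCL2L2 counted, and both its size and its order over the groups could differ then. These sums are descriptions with no test, and in bulk RNA a different mix of cells and a different amount of transcript per cell cannot be told apart.

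**Figure D4:**
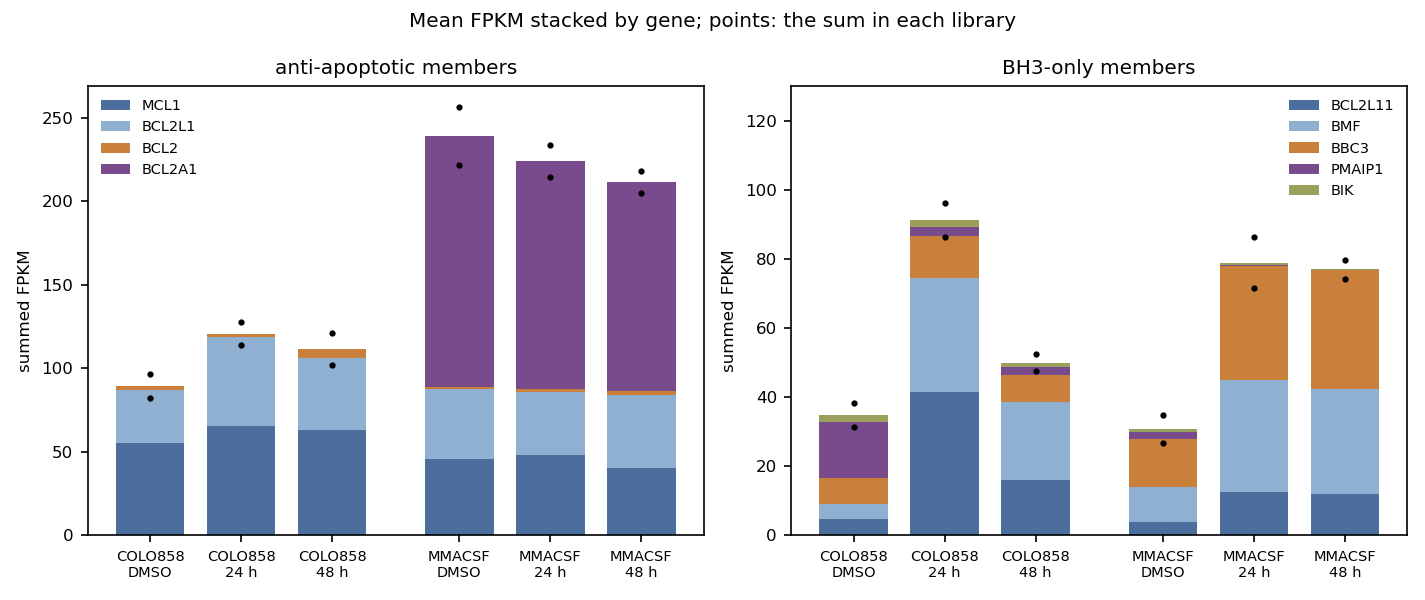
Summed FPKM (y axis) of the 4 guards (left) and the 5 BH3-only genes (right) in each group, stacked by gene from group means, with points for the sum in each of the 2 libraries. BCL2A1 makes up 59.4% to 62.9% of the guard sum in MMACSF, and PMAIP1 shrinks from 45.9% to 2.80% of the BH3-only sum in COLO858 between DMSO and 24 h.

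No gene passed the same test among the other family genes or the apoptosome and effector caspases followed here. With 2 libraries per group, not passing does not show that a gene stayed level. Of 12 other family genes, 9 were expressed enough to test in either line and 0 passed in any of the 9 comparisons with limma, with 0 to 4 at an unadjusted p under 0.05, which 6.98% to 40.3% of all genes had. They include BAK1, the effector that acts beside BAX, at means of 18.6, 21.9, and 23.9 FPKM in COLO858 and 19.6, 16.8, and 14.8 in MMACSF over DMSO, 24 h, and 48 h. BCL2L2, the guard BCL-W, read 15.1, 21.9, and 26.1 FPKM in COLO858, with a 48 h difference of 0.75 (limma adjusted p = 0.0173). Of 8 genes of the apoptosome and effector caspases, 0 passed in any comparison, with 0 to 3 at an unadjusted p under 0.05. CYCS, the cytochrome c released by BAX and BAK1, came closest, at -1.44 (limma adjusted p = 0.0110) in MMACSF at 48 h.

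Calls were found among the inhibitor of apoptosis proteins, of which 6 of 7 were tested. BIRC5, which encodes survivin and is also a mitotic protein, fell by 2.31 in COLO858 at 24 h (limma adjusted p = 0.00115), rose again by 1.51 from 24 to 48 h (limma adjusted p = 0.00929), and had means of 58.3, 10.9, and 33.2 FPKM. In MMACSF it fell by 2.39 at 24 h (limma adjusted p = 0.00124) and it fell by 3.97 at 48 h (limma adjusted p = 0.000345), with means of 31.2, 5.14, and 1.06 FPKM. The lines differed at 48 h by 3.16 (limma adjusted p = 2.45e-05). BIRC7, the melanoma inhibitor livin, fell at 48 h by 1.34 in COLO858 (limma adjusted p = 0.00753) and by 1.21 in MMACSF (limma adjusted p = 0.00694). NAIP, which also senses bacterial proteins, rose by 1.22 in COLO858 at 48 h (limma adjusted p = 0.00936), from a mean of 1.33 to 4.44 FPKM.

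Of 12 regulators of the family, 0 passed in limma at 24 h in either line, with 6 in each at an unadjusted p under 0.05 (40.3% of all genes in COLO858 and 36.0% in MMACSF). At 48 h 1 rose in each line, where 4.74% of all genes rose in COLO858 and 3.42% in MMACSF. In COLO858 this was DYNLL2, the dynein light chain that holds BMF, with libraries at 35.4 and 39.9 FPKM under DMSO and 79.0 and 82.3 at 48 h. It rose by 1.08 (limma adjusted p = 0.00564), and the lines differed by 1.10 (limma adjusted p = 0.00275). In MMACSF it was FOXO4, as above. DDIT3, the stress factor CHOP that can raise BCL2L11, differed between the lines at 24 h by 1.34 (limma adjusted p = 0.00268), with means of 15.5 and 29.4 FPKM in COLO858 and 112 and 81.0 in MMACSF under DMSO and at 24 h. In neither line did it pass on its own, at 0.88 (limma adjusted p = 0.0106) and -0.46 (limma adjusted p = 0.0682).

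Some markers of cell state also changed, not all of them the same in the 2 lines. Lineage markers summed to 620 to 659 FPKM in COLO858 under DMSO, 3817 to 4017 at 24 h, and 4057 to 4075 at 48 h. Of 5 tested, 3 were higher at each time, against 4.11% of all genes at 24 h and 4.74% at 48 h. DCT, an enzyme of melanin synthesis, rose by 3.44 and the calcium-binding protein S100B by 2.00 at 24 h, and by 3.01 and 3.16 at 48 h (limma adjusted p of 0.000784 or less). The DCT means were 267, 2915, and 2150 FPKM over DMSO, 24 h, and 48 h, most of the sum in drug. In MMACSF the sums were 10984 to 11127, 15389 to 16522, and 16618 to 17280 FPKM. There 1 and 3 of 6 were higher at 24 and 48 h, against 2.22% and 3.42% of all genes. Most of each sum was PMEL, with means of 7944, 10657, and 11552 FPKM, which passed at neither time. S100B did not rise there, with means of 819, 767, and 673 FPKM, and did not pass. DCT rose by 1.35 at 24 h and by 1.17 at 48 h, when MLANA, a melanosome protein, rose by 1.04 (limma adjusted p of 0.00874 or less). The 8 markers of keratinocytes, leukocytes, endothelium, and fibroblasts summed to at most 0.612 FPKM in MMACSF. In COLO858 they summed to 0.659 to 0.706 FPKM under DMSO, 3.35 to 3.41 at 24 h, and 8.39 to 8.54 at 48 h. This came through the collagens COL3A1, higher by 1.42 and 2.70, and COL1A1, higher by 0.99 at 48 h. Both reached the minimum of 1 FPKM only in treated groups, with DMSO means of 0.165 and 0.177 FPKM, so their differences are description only. Of the 8 markers, 3 were at 0 in both replicates of each COLO858 group. The part of these markers in the family's values was not tested.

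Genes most like PMAIP1 and BMF, the members past the threshold at 48 h, were sought among 3024 genes that were tested in both lines and moved by at least 1 on the log2 scale in any comparison with DMSO. Likeness was Pearson's r over the 12 libraries of log2(FPKM + 1) centered on the DMSO mean of the line. PMAIP1 was followed most closely by NHP2L1 (r = 0.991), IARS (r = 0.989), and ZNF215 (r = 0.989). IARS, an aminoacyl-tRNA synthetase, differed from DMSO by -1.32 and -1.33 in COLO858 and by -0.72 and -0.94 in MMACSF at 24 and 48 h. BMF was followed by KDM4A (r = 0.995), C5orf4 (r = 0.991), and ERBB3 (r = 0.988). ERBB3, a receptor tyrosine kinase, differed by 1.36 and 1.28 in COLO858 and by 0.80 and 0.87 in MMACSF. These values describe shared profiles over groups that contrast strongly, and the 12 libraries share their DMSO baselines.

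The genes lie apart in the genome. On GRCh37 (GENCODE v44 lifted), the build of the authors' alignment, BCL2L11 spans chr2:111876955-111926021 on the plus strand, BMF chr15:40380091-40401093 on the minus strand, and PMAIP1 chr18:57567228-57571537 on the plus strand. BCL2 lies on the same chromosome as PMAIP1, at chr18:60790579-60987361 on the minus strand, and BCL2A1 on that of BMF, at chr15:80253234-80263538. BBC3 and BAX share chromosome 19, at chr19:47724079-47736023 on the minus strand and chr19:49458072-49465055 on the plus strand. BCL2L1 is at chr20:30252255-30311792 and MCL1 at chr1:150533371-150552214, both on the minus strand, and BIK at chr22:43506756-43525718 on the plus strand.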

How the data were processed

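Poly(A) RNA of 12 libraries was sequenced by the authors as single reads of 50 bases from stranded libraries. The authors aligned them to hg19 with TopHat and computed gene values with Cuffdiff. Versions, the gene annotation, and the strand setting are not given in the sources used here. The deposited FPKM, 1 table per line, were used as given, and 0 columns of samples were left out. Depth is not known, so no counting interval can be given.

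Each line was fitted with limma 3.58.1 in R 4.3.3 on log2(FPKM + 1), 3 groups, with a variance trend, for genes whose mean reached 1 FPKM in any group. Line differences were interaction contrasts of a fit of 6 groups. P-values are two-sided, Benjamini-Hochberg adjusted over all genes tested, with a threshold of 0.01. The procedure was tested on simulated data. Alternatives were 0.1 FPKM added, no minimum or a minimum of 10 FPKM, median-ratio scaling, no trend, no small RNA genes, a threshold of 0.05, the replicate block, and leaving out each library. Members and lists were chosen with earlier results of these data known. All 10 members are named. From other lists, genes past the threshold against DMSO are named, at most the 2 largest rises and 2 largest falls for each list, line, and time. BAK1, BAD, BCL2L2, CYCS, MITF, FOXO1, FOXO3, DDIT3, TYR, and the other lineage markers given by their levels were added after their values were seen.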

Additional observations from a re-analysis of the deposited data

Results flagged for a closer look

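One result differed between the lines by its own test in the main fit, which does not use the replicate number. With the replicate block more members passed, as did many more of all genes, as given below. BCL2L1, which encodes BCL-XL, moved upward in COLO858 and slightly downward in MMACSF at 24 h of vemurafenib, and the interaction was 0.89 on the log2(FPKM + 1) scale (SE 0.13, limma adjusted p = 0.00500). Both COLO858 libraries at 24 h exceeded both DMSO libraries, and both MMACSF libraries at 24 h lay below both DMSO libraries. Groups of 2 libraries are too small to look for outlying libraries.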

How the results depend on the processing

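Members called against DMSO numbered 3 and 2 in COLO858 and 2 and 2 in MMACSF at 24 and 48 h. The MMACSF counts include PMAIP1, tested there only through its DMSO mean. With 0.1 FPKM added, 1 was called in MMACSF at 24 h, and with a minimum of 10 FPKM, which drops PMAIP1 there, 1 at 24 h and 1 at 48 h. Without small RNA genes 4 were called in COLO858 at 48 h, with 1719 of all genes in place of 1202. Median-ratio scaling gave 2 for the line difference at 24 h in place of 1, with 596 of all genes in place of 505. A threshold of 0.05 gave 4 in COLO858 at 48 h, 1 between 24 and 48 h in that line, and 2 for the line difference at 24 h, with 3298, 809, and 1227 of all genes. Leaving out 1 library gave 0 to 1 in COLO858 at 24 h and 0 to 0 in every other comparison, where all genes called also dropped, to 114 to 154 in COLO858 at 24 h and 58 to 72 in MMACSF at 24 h. Leaving one arm with 1 library assumes that it varies like the others.

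The groups of a line share replicate numbers, but nothing states what a number shares. After subtracting group means, libraries with the same number had a Pearson r of 0.196 to 0.211 (COLO858) and 0.0628 to 0.113 (MMACSF) over genes, and of 0.753 to 0.779 and 0.590 to 0.673 without small RNA genes. With the replicate block, 4 members were called in COLO858 at 24 h, 5 at 48 h, and 3 between these times, 4 in MMACSF at 24 h and 4 at 48 h, and 5, 4, and 2 for the line differences at 24 h, at 48 h, and from 24 to 48 h. Calls gained with it were BCL2L1 at 24 h, BCL2, BCL2L1, and BCL2L11 at 48 h, and BCL2, BCL2L11, and BAX between these times in COLO858, BCL2L11 and BAX at both times in MMACSF, and BCL2L11, BMF, PMAIP1, and BAX at 24 h, BCL2L1, MCL1, PMAIP1, and BAX at 48 h, and BCL2L1 and BCL2L11 from 24 to 48 h for the line differences. All genes called with the replicate block numbered 5719, 5549, and 2280 in COLO858 at 24 h, at 48 h, and between, 3284, 3790, and 32 in MMACSF, and 2396, 3434, and 1774 for the line differences.

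Signs turned only among members that were not called. The PMAIP1 line difference at 48 h was 0.098 with 0.1 FPKM added, and BCL2 in MMACSF at 24 h was -0.023 with median-ratio scaling. Leaving out 1 library moved BAX in COLO858 from -0.44 to 0.090 at 24 h and from -0.15 to 0.40 at 48 h, BBC3 in COLO858 at 48 h from -0.027 to 0.12, BIK in COLO858 at 24 h from -0.35 to 0.29, and MCL1 from -0.023 to 0.39 in COLO858 at 48 h and from -0.072 to 0.22 in MMACSF at 24 h. BCL2 ranged from -0.33 to 0.020 in COLO858 and from -0.062 to 0.10 in MMACSF at 24 h, with a line difference of -0.34 to 0.0018. BCL2L11 ranged from -0.19 to 0.50 for the line difference at 48 h and from -0.29 to 0.20 between 24 and 48 h in MMACSF, where BMF ranged from -0.21 to 0.013. Dropping the minimum or the trend changed no call among the members. Depth is unknown, so no limit of detection can be given for BCL2A1 in COLO858 or BIK.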
